A study of Mus musculus with 12 samples.

Results

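The mitochondrial genome of the mouse is a small circle that carries the genes for 13 proteins of oxidative phosphorylation, 2 ribosomal RNAs and 22 transfer RNAs. These genes were examined in the deposited RNA sequencing counts of the thoracic aorta by taking every row whose symbol begins with mt- in lower case. This found 24 of the 25284 gene rows, of which 12 are protein genes, 2 are rRNA genes and 10 are tRNA genes. The GENCODE annotation of the build that the submitters name (mm10) lists 37 genes on this genome, and the other 13 were not analysed here. Among them is the protein gene mt-Nd4l, a subunit of complex I.

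The aortas came from 12 male ApoE-/- mice on a C57BL/6 background, which lack the lipid-carrying apolipoprotein E and are prone to atherosclerosis. All were on a diet rich in fat and cholesterol. For 8 weeks, pumps under the skin gave 6 mice AZ6983, an agonist of the alpha 7 nicotinic acetylcholine receptor, at 50 µmol per kg per day, and gave the 6 control mice vehicle (cyclodextrin in saline). The mice were 18 weeks old. Control mice are called C1 to C6 and AZ6983 mice A1 to A6, and each mouse gave 1 library. The AZ6983 column used for A1 was matched to its mouse by 3 of the 4 digits of the mouse's number, and the other 11 columns were matched in full.

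Both strands of the circle are transcribed into long RNAs, which are cut mostly at the tRNAs that lie between the other genes. The proteins are core subunits of complexes I, III, IV and V of the respiratory chain, whose remaining subunits are nuclear, and the rRNAs build the mitochondrial ribosome. Cells with many mitochondria, such as brown fat and heart muscle, hold much RNA of this kind. In the aorta it comes from smooth muscle, from the endothelium and from the fat around the vessel wherever that is dissected with it. In bulk tissue, fewer cells of a type and less RNA per cell cannot be told apart.

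The libraries held between 23810036 and 35864666 counts on genes. Of each column, 8.02% to 14.9% were reads outside the annotated genes, 10.1 ± 1.55% in the control and 12.8 ± 1.36% in the AZ6983 mice (mean ± SD, n = 6 each), and the part of this difference in the values given here was not tested beyond a fit with this share as a covariate. Ribosomal RNA had been removed with a capture kit that also targets mitochondrial rRNA, and the rRNA counts are what the removal left. Myh11, the myosin of smooth muscle, was between 4551 and 7014 CPM (counts scaled to a library of common size) in every mouse, so that the defining marker of the labelled tissue was present. Ucp1, the heat-making protein of brown fat, was between 1228 and 3728 CPM. Myh6 (heart muscle) lay between 0.745 and 99.9 CPM and Acta1 (skeletal muscle) between 0.446 and 131 CPM. Rag1 (immature T cells) reached 577 CPM in A4, against at most 21.3 CPM in the other mice.

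Nuclear copies of mitochondrial DNA bear on which of these genes can be counted. Chromosome 1 carries, on the minus strand, a run of 7 annotated pseudogenes between chr1:24611535-24616197 (mm10) that corresponds to bases 6381 to 11042 of the mitochondrial genome (M). Over the 4149 bases that the pseudogene transcripts share with their mitochondrial counterparts, 4142 are identical (99.8%). The first 75 bases of mt-Co2 (complex IV subunit) and of its copies are shown because 75 bases is the read length. They come from GENCODE transcripts at M:7013-7087 on the plus strand for mt-Co2, chr1:24615491-24615565 for Gm28661 and chr2:22587888-22587962 for Gm13341, both on the minus strand. Capitals mark the bases at which mt-Co2 and Gm13341 differ, C25T and G57A, counted from 1 at the first base of the gene, and the chromosome 1 copy has no difference from mt-Co2.
mt-Co2: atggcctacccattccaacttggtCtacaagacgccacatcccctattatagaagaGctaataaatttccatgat
Gm28661: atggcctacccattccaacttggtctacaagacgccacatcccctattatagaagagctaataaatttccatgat
Gm13341: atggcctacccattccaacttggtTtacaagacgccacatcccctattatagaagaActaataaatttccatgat

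The next pair is shown because a single base, T3C in the start codon, separates mt-Nd3 (complex I, M:9459-9533) from its copy Gm28438 (chr1:24613045-24613119, minus strand), again in capitals.
mt-Nd3: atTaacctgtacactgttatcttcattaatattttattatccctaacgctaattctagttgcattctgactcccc
Gm28438: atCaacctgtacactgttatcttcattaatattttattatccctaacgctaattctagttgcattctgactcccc

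The last pair is the edge of the chromosome 1 copy, where it enters mt-Co1 (complex IV). Bases 1054 to 1128 of mt-Co1 (M:6381-6455) are set against the outer end of Gm29216 (chr1:24616123-24616197, minus strand). The 6 differences are T1056A, C1057T, A1059G, A1060G, C1062A and A1066T, and from there to the end of the gene the copy follows mt-Co1 base for base.
mt-Co1: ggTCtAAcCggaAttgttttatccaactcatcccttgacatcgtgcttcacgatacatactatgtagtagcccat
Gm29216: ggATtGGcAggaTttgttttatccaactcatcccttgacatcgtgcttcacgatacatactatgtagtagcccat

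For each protein gene, every stretch of 75 bases was looked up in all other GENCODE transcripts. In mt-Co3 709 of 710 stretches occurred elsewhere, in mt-Co2 607 of 610, in mt-Atp6 (complex V) 604 of 607 and in mt-Nd3 268 of 274. The share was 61.5% in mt-Nd4, 39.8% in mt-Co1, 5.71% in mt-Nd2 and 1.66% in mt-Nd5. No stretch of mt-Nd1, mt-Nd6, mt-Cytb, mt-Rnr1 or mt-Rnr2 was found in another transcript. The same was true of mt-Atp8 (complex V), which lies in the copied part of the genome at a place, chr1:24614609-24614812, of which no more than the end within Gm10925 has an annotated transcript.

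In the deposited table mt-Co2 had 14 to 42 counts per mouse, mt-Co3 25 to 82, mt-Atp6 2 to 17, mt-Nd3 0 to 8 and mt-Atp8 0 to 2. By contrast mt-Co1 had 509855 to 931405 counts, mt-Cytb 90169 to 242060 and mt-Nd1 75093 to 187757. Reads aligning to more than 1 place were set aside in the deposited table and made up 18.1% to 23.2% of each column, without a record of the genes they came from. The nuclear copies themselves were low, with 32 to 79 counts for Gm28661 and 112 to 237 for Gm28438, which exceeded mt-Nd3 in all 12 mice. The low counts of mt-Co2, mt-Co3, mt-Atp6 and mt-Nd3 are given for completeness and are not read as amounts of these transcripts.

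**Figure D1:**
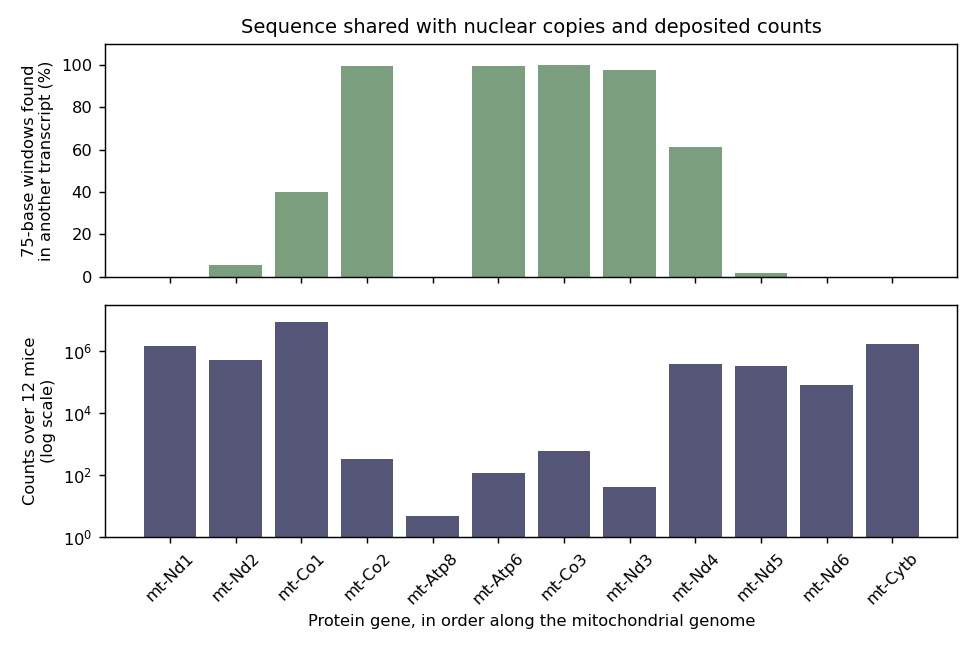
For the 12 protein genes with a row, in genome order, the upper panel gives the percent of 75-base stretches that also occur in another GENCODE transcript and the lower panel the counts summed over 12 mice, on a log scale. The 4 genes above 95% in the upper panel hold between 42 and 593 counts in the lower one, and mt-Atp8, inside the copied run but without an annotated copy, holds 5.

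The 24 rows took 15.5%, 17.0%, 16.6%, 14.4%, 15.5% and 11.4% of all gene counts in C1 to C6. In A1 to A6 they took 12.4%, 13.4%, 9.96%, 13.7%, 24.01% and 16.5%. The highest and the lowest share, in A5 and A3, were both in AZ6983 mice, and the range of the AZ6983 mice covered that of the controls. The means were 15.1 ± 2.02% and 15.0 ± 4.90% (SD, n = 6 each), a difference of -0.0774 percentage points. Without A5 the AZ6983 mean was 13.2 ± 2.37% (n = 5), which is 1.88 points under the control mean. The SDs describe single mice, and the difference of means was not tested.

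Most of this share, as counted, was ribosomal. Reads aligning to several places were set aside, and stretches of several protein genes occur elsewhere, while none of the rRNA genes do. The shares are therefore of the reads counted and are not read as the makeup of the RNA. The 2 rRNA genes took 11.1 ± 1.62% of gene counts in control and 11.4 ± 4.07% in AZ6983 mice, and the protein genes 3.93 ± 0.488% and 3.56 ± 0.946%. The protein gene share spanned 3.06% (C6) to 4.43% (C5) in controls. In A5 it was 5.435%, and in the other AZ6983 mice it was 2.93% to 3.53%, with 3 of these 5 below the lowest control. Without A5 the AZ6983 mean of the protein gene share was 3.19 ± 0.257% (n = 5). This is a difference of -0.739 percentage points from the control mean, which was not tested. The 10 tRNA rows together had 499 to 971 counts per mouse. Mature tRNAs are shorter than a library insert and are largely lost in such preparations.

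A5 had the most concentrated library: its 10 most abundant genes held 30.2% of gene counts, against 16.0% to 22.1% in the other 11 mice. Of the 10, 5 were mitochondrial, as in C1, C3 and C5. The concentration was not confined to the mitochondrial rows. Among nuclear genes alone, the 10 most abundant held 11.5% of nuclear counts in A5. They held 8.80% to 9.32% in the other AZ6983 mice and 7.63% to 8.91% in controls, so that 5 AZ6983 mice were above every control.

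**Figure D2:**
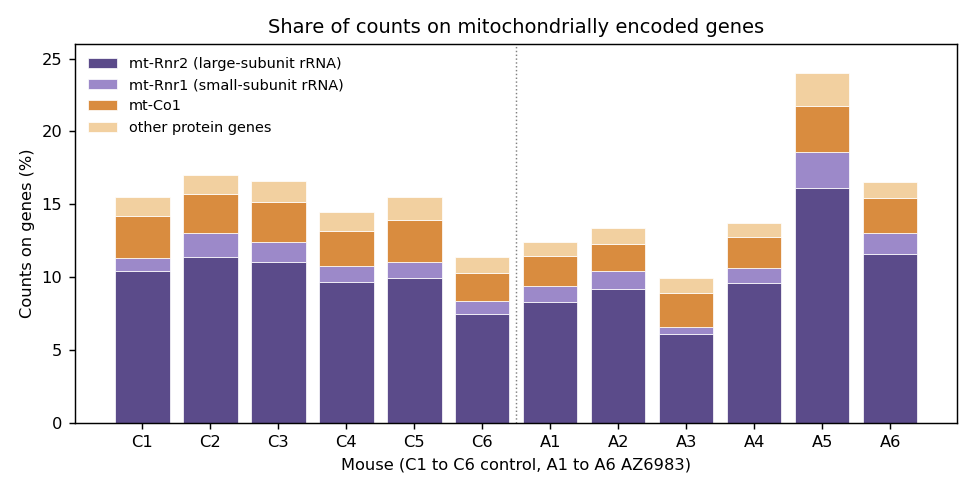
Percent of each mouse's gene counts that fell on mt-Rnr2, mt-Rnr1, mt-Co1 and the other protein genes, stacked, for 6 control and 6 AZ6983 mice. A5 reaches 24.01%, A3 stops at 9.96%, and the other 10 mice lie between 11.4% and 17.0%.

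Within the mitochondrial counts, the large-subunit rRNA mt-Rnr2 made up 66.2 ± 1.17% in control and 67.5 ± 3.25% in AZ6983 mice. mt-Co1 followed with 17.2 ± 1.17% and 16.3 ± 3.93%, and the small-subunit rRNA mt-Rnr1 with 7.69 ± 1.14% and 8.07 ± 1.999%. Cytochrome b (mt-Cytb, complex III) held 3.29 ± 0.273% and 3.09 ± 0.474%, and mt-Nd1 (complex I) 3.15 ± 0.271% and 2.57 ± 0.414%. The share of mt-Nd1 lay below the lowest control share in 4 of the 6 AZ6983 mice. Every other gene held at most 1.275% in any mouse.

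The balance differed between mice, and the values of A3, A5 and A2 are given. These too are shares of the reads counted, into which mt-Co2, mt-Co3, mt-Atp6 and mt-Nd3 hardly enter. In A3 the rRNA genes held 65.9% of mitochondrial counts, against 71.4% to 78.6% in the other 11 mice, and mt-Co1 held 23.9%, against 13.2% to 18.7%. The ratio of mt-Rnr1 to mt-Rnr2 counts was 0.0722 in A3 and 0.0892 to 0.152 elsewhere. The rRNA share was above that of the highest control (76.4%) in 4 of the AZ6983 mice, A2, A4, A5 and A6. A5 was at the other end for the protein genes: mt-Co1 held 58.5% of their counts, the lowest share of all mice, and the complex I genes 26.2%, the highest. A2 was next to it, with 62.6% for mt-Co1 and 23.6% for complex I, and its ratio of mt-Nd5 to mt-Co1 counts was 0.0616, against 0.0681 in A5 and 0.0256 to 0.0426 in the other 10 mice.

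Levels were also taken per kilobase of gene, in CPM, which can understate genes with stretches found elsewhere, such as mt-Nd4 and mt-Co1. The medians over 12 mice were 62056 for mt-Rnr2, 15677 for mt-Co1, 11681 for mt-Rnr1, 4365 for mt-Nd1, 4056 for mt-Cytb, 1290 for mt-Nd2, 725 for mt-Nd4, 452 for mt-Nd5 and 391 for mt-Nd6. The rRNA positions depend on how much the kit removed. This order held in all 12 mice except for 3 pairs of neighbours: mt-Co1 was above mt-Rnr1 in 10 mice, mt-Nd1 above mt-Cytb in 8 and mt-Nd5 above mt-Nd6 in 8. With the length reduced to stretches not found elsewhere, mt-Nd4 (median 1990 CPM per kilobase) was above mt-Nd2 (1473) in all 12 mice, since most of mt-Nd4 lies in the copied run. On that scale mt-Co1 was also above mt-Rnr1 in all 12 mice. The stretches have the length of a single read while the reads were paired, so this scale is approximate too. mt-Nd6 is the one protein gene on the opposite strand. Whether the counting used strand is not given in the sources used here, so RNA antisense to mt-Nd6 cannot be told apart from it.

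The comparison of AZ6983 with control asks whether receptor stimulation for 8 weeks changed RNA levels in the aorta. edgeR's quasi-likelihood test with Benjamini-Hochberg adjustment called 0 of the 15857 genes tested (0%) at a false discovery rate of 10%, and so none of the 19 mitochondrial rows that passed the filter on low counts (9 protein, 2 rRNA and 8 tRNA genes). At an unadjusted p under 0.05 there was also no mitochondrial row, against 2.81% of all tested genes lower and 7.38% higher in AZ6983. The adjusted p-values of the 19 rows ran from 0.520 to 0.979. Log2 fold changes were below 0 in 12 rows and above 0 in 7, and the tested protein genes had a median of -0.04 (-0.03 over the 7 with more than 1000 counts in every mouse), against 0.01 over all genes. The groups did not overlap in 0.41% of all genes and in no mitochondrial row. The study itself used DESeq2 at the same 10% and lists genes up and down in AZ6983, none of them mitochondrially encoded. Run here, DESeq2 called 92 genes of the table and none of the 24 mitochondrial rows, also with none at an unadjusted p under 0.05. limma-voom called no mitochondrial row either, with 1 (mt-Tw) at an unadjusted p under 0.05. The share of all genes at this p is not given for DESeq2 or limma-voom.

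mt-Rnr2 was at 71077, 101962 and 115553 CPM in the lowest, median and highest control and at 57120, 91852 and 192830 CPM in AZ6983. mt-Rnr1 was at 8178, 11155 and 16246 CPM in control and at 4124, 11337 and 29325 CPM in AZ6983. For both rRNAs the AZ6983 mice spread beyond the controls on either side, with A3 lowest and A5 highest of all 12. The log2 fold change was 0.08 ± 0.29 (SE) for mt-Rnr2 and 0.19 ± 0.36 for mt-Rnr1, with adjusted p-values of 0.939 and 0.866.

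mt-Co1, the catalytic subunit of cytochrome c oxidase, was at 18695, 27250 and 29172 CPM in the lowest, median and highest control and at 18336, 21286 and 38054 CPM in AZ6983. Apart from A5, the AZ6983 mice lay at 24138 CPM or less, and 5 of the 6 controls lay above that value. The fold change over all mice was -0.12 ± 0.21 (log2, adjusted p = 0.853, edgeR). mt-Co2 and mt-Co3 passed the filter with fewer than 100 counts per mouse and had log2 fold changes of -0.28 ± 0.28 and -0.18 ± 0.27.

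mt-Cytb, the heme protein of complex III, was at 3660, 4954 and 5653 CPM in control and at 3348, 3812 and 9890 CPM in AZ6983. In A1, A3 and A4 it was below the lowest control and in A5 above the highest. The log2 fold change was -0.03 ± 0.26 (adjusted p = 0.973, edgeR).

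The fitted fold changes of the complex I subunits had both signs, and none passed the test. mt-Nd1 was at 3769, 4640 and 5413 CPM in the lowest, median and highest control. In AZ6983 it was at 3497, 3040, 2943, 2970, 7671 and 3535 CPM in A1 to A6, so that 5 mice were below every control and A5 was above every control. Its log2 fold change was -0.25 ± 0.23 (adjusted p = 0.688, edgeR). mt-Nd2 was at 1187, 1449 and 1778 CPM in control and at 933, 1117 and 3662 CPM in AZ6983 (log2 fold change 0.05 ± 0.31). mt-Nd4 was at 908, 1015 and 1386 CPM in control and at 719, 995 and 2554 CPM in AZ6983 (0.16 ± 0.28).

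In mt-Nd2 and mt-Nd4 the median AZ6983 mouse was below the median control while the fitted fold change was above 0, with A5 far above the rest. mt-Nd5 showed the same, at 679, 855 and 1212 CPM in control and 560, 825 and 2590 CPM in AZ6983 (log2 fold change 0.32 ± 0.33). mt-Nd6 was at 112, 245 and 356 CPM in control and at 105, 173 and 585 CPM in AZ6983 (-0.04 ± 0.41). The counts of mt-Nd6 relative to mt-Nd5, its neighbour on the opposite strand, were 0.141 to 0.389 in control and 0.127 to 0.300 in AZ6983.

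**Figure D3:**
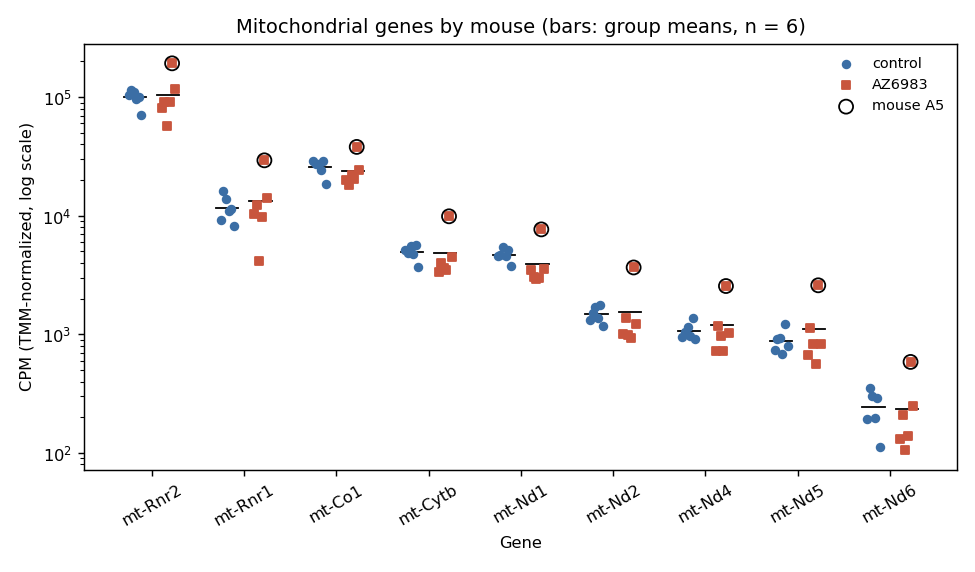
Levels in CPM after TMM normalization, on a log scale, of the 9 genes with over 1000 counts in every mouse. Each point is a mouse, the bars are the means of 6 control and 6 AZ6983 mice, and the circled mouse A5 is the highest of all 12 for each of the 9 genes.

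The tRNA rows are thin. The 3 with the highest counts were mt-Ti (isoleucine tRNA, 76 to 293 counts per mouse), mt-Tw (tryptophan tRNA, 125 to 273) and mt-Tp (proline tRNA, 62 to 196). mt-Tw had the lowest unadjusted p of all members (0.0736, edgeR), at 5.44, 7.42 and 9.46 CPM in the lowest, median and highest control and 4.64, 5.55 and 9.11 CPM in AZ6983 (log2 fold change -0.35 ± 0.18, adjusted p = 0.520). The log2 fold change was -0.07 ± 0.30 for mt-Ti and -0.27 ± 0.19 for mt-Tp, neither past the threshold. The other 5 tested tRNA rows had log2 fold changes between -0.32 (mt-Tm) and 0.15 (mt-Ta). The rows that did not pass the filter were mt-Te with 1 to 15 counts, mt-Tv with 0 to 2, and mt-Atp6, mt-Atp8 and mt-Nd3.

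Relative to the median of the other 11 mice, A5 had 3.15 times the CPM of mt-Nd5, 2.97 times that of mt-Nd6, 2.78 of mt-Nd2, 2.68 of mt-Rnr1, 2.61 of mt-Nd4, 2.18 of mt-Cytb, 2.04 of mt-Nd1, 2.002 of mt-Rnr2 and 1.58 of mt-Co1. The tRNA rows with over 100 counts in A5 stood at 1.03 times (mt-Tp) to 1.62 times (mt-Ti) that median. A3, the mouse with the lowest share, had 0.362 times the median of the other mice for mt-Rnr1 and 0.571 times for mt-Rnr2, with 0.914 times for mt-Co1 and 1.01 times for mt-Nd5. Other protein genes were lower in A3, at 0.503 times for mt-Nd6, 0.642 times for mt-Nd1, 0.732 times for mt-Nd2 and 0.756 times for mt-Cytb, and mt-Nd1 and mt-Nd6 were at their lowest of all 12 mice.

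Leaving A5 out, 17 of the 20 mitochondrial rows then tested had a log2 fold change below 0 and the protein genes had a median of -0.44 (-0.39 over the 7 with more than 1000 counts in every mouse), against -0.01 over all 16011 genes tested. edgeR called 27 genes (0.169%) at 10% FDR and no mitochondrial row. At an unadjusted p under 0.05, 8 of the 20 rows were lower (mt-Co1, mt-Co2, mt-Co3, mt-Cytb, mt-Nd1, mt-Nd2, mt-Tm and mt-Tw), against 6.95% of all genes. The 8 include mt-Co2 and mt-Co3, whose counts are not read as amounts of their transcripts, and mt-Tm, with 12 to 36 counts per mouse. These genes are transcribed together as long RNAs, so the 8 are not separate results. The row nearest the threshold was mt-Nd1 (log2 fold change -0.58 ± 0.11, adjusted p = 0.109, edgeR). It was at 2943 to 3535 CPM in 5 AZ6983 mice and at 3769 to 5413 CPM in 6 controls. mt-Nd2, mt-Nd4, mt-Nd5, mt-Rnr1 and mt-Rnr2 turned from above to below 0. A5 stands out in the same counts that are compared here, so its omission is no independent choice.

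**Figure D4:**
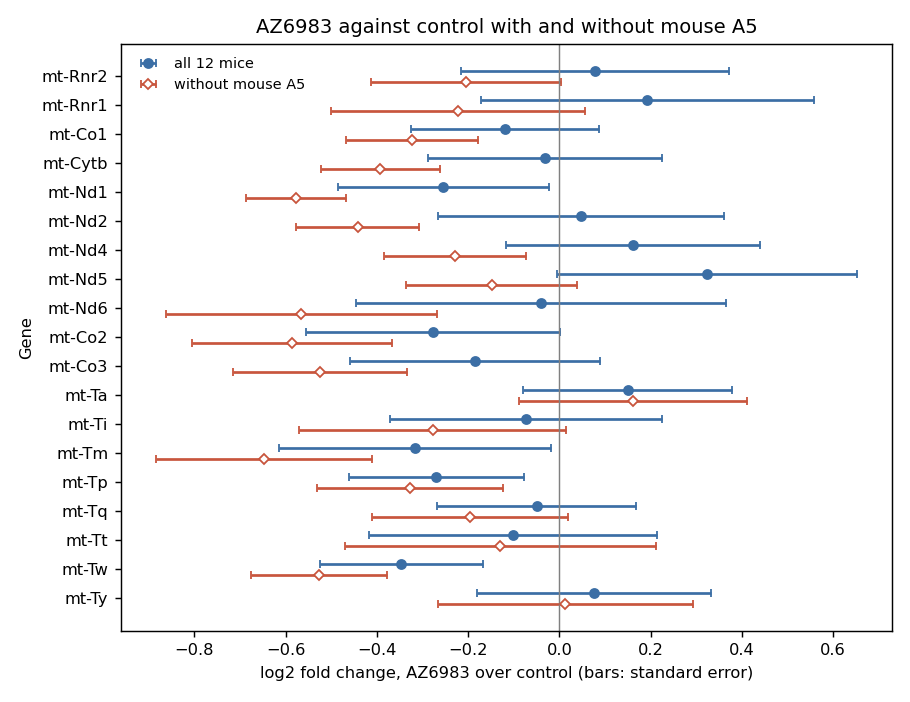
Log2 fold change of AZ6983 over control with its standard error for the 19 rows that passed the filter, from all 12 mice (filled circles) and without A5 (open diamonds). With all mice the values run from -0.35 to 0.32 on either side of 0, and without A5 all but mt-Ta and mt-Ty lie below 0.

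The nuclear genes of the same machinery were read from 9 lists with 140 tested genes in all, and edgeR called none of them at 10% FDR (smallest adjusted p = 0.450). At an unadjusted p under 0.05, 5 of the 140 (3.57%) were lower and 2 (1.43%) higher, against the 2.81% and 7.38% of all genes. The 84 tested nuclear subunits of complexes I to V had a median log2 fold change of -0.05, and 70 were below 0, although 1 alone, Cox4i2, an isoform of a complex IV subunit, was at an unadjusted p under 0.05 (-0.36 ± 0.16). Without A5 the median was -0.21, with 81 of 84 below 0 and none called. The mitochondrial transcription list, which holds the polymerase Polrmt and its factors Tfam and Tfb2m, had 7 of 9 genes below 0 and a median of -0.08. In the list for RNA processing, stability and decay 15 of 24 were below 0 (median -0.04), and Angel2 (-0.12 ± 0.04) and Rexo2 (-0.14 ± 0.06) were at an unadjusted p under 0.05. In the list for copying and upkeep of the genome 6 of 12 were below 0, and Rrm2b (-0.18 ± 0.08) and Slc25a4 (-0.15 ± 0.06) were at an unadjusted p under 0.05. In the list of regulators of mitochondrial content 8 of 12 were above 0, with Pprc1 (0.47 ± 0.18) and Nrip1 (0.17 ± 0.07) at an unadjusted p under 0.05.

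The brown fat gene Ucp1 and mt-Nd1 were both highest in A5 and lowest in A3. Ucp1 was at 2464, 3034, 2705, 2766, 2961 and 1834 CPM in C1 to C6 and at 1669, 1502, 1228, 1351, 3728 and 1741 CPM in A1 to A6. As for mt-Nd1, C6 was the lowest control, 5 AZ6983 mice were below every control and A5 was above all others. Among the mitochondrial genes with over 1000 counts in every mouse, mt-Nd1 alone had 5 AZ6983 mice below every control. In the others 1 to 3 were below. The fitted log2 fold change of Ucp1 was -0.49 ± 0.25 (adjusted p = 0.518, edgeR), and without A5 it was among the 27 genes called. The 12 brown fat markers summed to 2988 to 4792 CPM in control, to 6254 CPM in A5 and to 2586 to 3362 CPM in the other AZ6983 mice. Ucp1 is 1 of them and gave 3728 of the 6254 CPM in A5 and 2464 of the 4142 CPM in C1. The sum is therefore not separate from Ucp1. Of the 11 brown fat markers tested, 8 were lower in AZ6983 and 3 higher, with a median log2 fold change of -0.17.

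Other tissues were uneven as well. The 10 white fat markers summed to 4731 CPM in C6, the lowest of all mice, and to 12047 CPM in A5, the highest. The 10 smooth muscle markers were lowest in A5 (11952 CPM, against 15135 to 20207 CPM in the others), as was Myh11 (4551 CPM). Fibroblast (3074 CPM), macrophage (728 CPM) and red cell markers (463 CPM) were lowest in A5 too. Endothelial and nerve markers each ranked 3 from the top in A5, and thymocyte and T cell markers 7. Skeletal muscle markers summed to 59.1 to 656 CPM and were high in C2, A2, A5 and A6, while heart markers summed to 87.6 to 327 CPM and were highest in C2 and A2. The part of these tissues in the mitochondrial values was not tested.

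**Figure D5:**
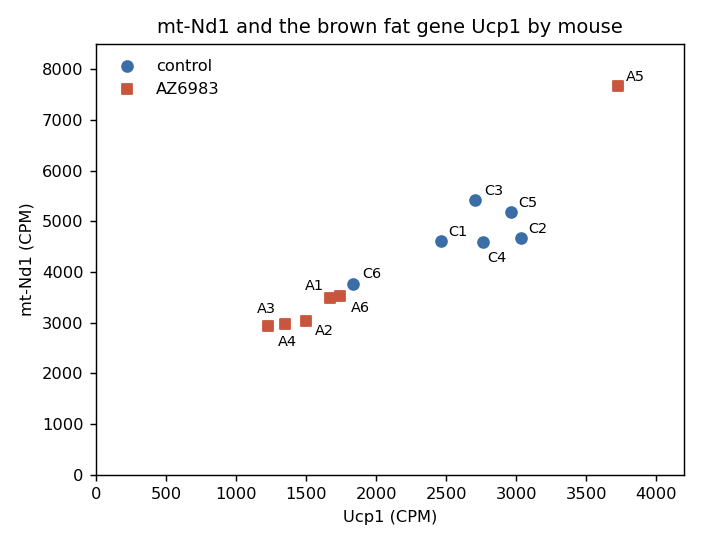
CPM of mt-Nd1 against CPM of Ucp1 in 6 control and 6 AZ6983 mice, each point a mouse. A5 is highest on both axes, at 3728 CPM of Ucp1 and 7671 CPM of mt-Nd1, and the other 5 AZ6983 mice are below the lowest control, C6, on both.

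The 5 nuclear genes whose log2 CPM followed the log2 summed CPM of the mitochondrial protein genes most closely over the 12 mice were Mtch2, an outer membrane protein of mitochondria (Pearson r = 0.989), Ptgr2, a prostaglandin reductase (0.988), Ptcd2, a protein of mitochondrial RNA handling (0.987), Tfb2m, a transcription factor of the mitochondrial genome (0.985), and Tmem143 (0.985). Mtch2 was at 387 CPM in A5 and Tfb2m at 32.6 CPM, their highest values. Without A5 the 5 correlations were 0.966 to 0.982. Of the tissue markers, Ucp1 was at 0.866 and Myh11 at -0.834 over the 12 mice, with Myh6 at 0.349 and Acta1 at 0.357. Without A5 these were 0.858, -0.630, 0.343 and 0.166. The points share library, tissue makeup and scaling, and the values describe these 12 mice.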

How the data were processed

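RNA of thoracic aorta was sequenced by the authors from stranded total RNA libraries after rRNA removal (paired reads of 75 bases), and they deposited raw counts per gene for 12 mice. The submitters' processing notes name CASAVA 1.8.2, STAR 2.5.2b, HTSeq 0.6.1p1 and build mm10, and the annotation used for counting is not given in the sources used here. The table holds 25284 gene rows, none with a total under 2, and 3 rows that name no gene, which entered neither library sizes nor tests.

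Rows beginning with mt- were taken as members. Members and gene lists were chosen with earlier results of these data known, among them that the library of A5 was the most concentrated. Genes were filtered with filterByExpr, scaled by TMM and tested with edgeR 4.0.16 (quasi-likelihood, R 4.3.3, Benjamini-Hochberg over all genes tested, 10% FDR as in the study). CPM use TMM library sizes, and log2 CPM a prior count of 2. Standard errors are the log2 fold change over the square root of F. Shares, balance and medians carry no p. limma 3.58.1, DESeq2 1.42.0 and other settings were alternatives. The fit was tested on simulated data first. Positions, lengths and 75-base stretches are from GENCODE M21 transcripts (GRCm38, the same build as mm10). No genome sequence was used.

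By rule, the text accounts for all 24 rows, gives values for the protein and rRNA genes and the 3 tRNAs of highest mean count, and names list genes past the threshold (there were none), 5 tissue markers and the 5 genes most like the members. The list genes at an unadjusted p under 0.05 were named after their values were seen. The depth of 23810036 to 35864666 gene counts per mouse makes counting error small for the abundant genes, so p-values reflect the spread between mice, each 1 library. The column names end in a running number whose meaning is not given in the sources used here. In its order A3, A5 and C6 come first, then the other controls except C2. The other AZ6983 mice follow, and C2 is last. This order is thus partly aligned with group, and any effect of it was not tested. No paired analysis was possible because the labels give no pairing of mice across groups.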

Additional observations from a re-analysis of the deposited data

Results flagged for a closer look

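Of 56 groups of 6 mice examined (19 genes and 9 shares and ratios in each treatment group), 8 had a mouse whose gap to its nearest neighbour was large against the whole range of the group (Dixon's 95% limit). Chance alone would flag 2.8 of 56, and the measures share counts, so the flags are not independent of each other. The library of A5 was known to be the most concentrated before this check. No excess over chance is therefore read from the number of flags.

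A5 was far above the other 5 AZ6983 mice in 4 of them. Its log2 CPM was 13.27 for mt-Cytb, against 11.71 to 12.14 in the others. For mt-Nd1 it was 12.91, against 11.52 to 11.79, and for mt-Nd2 it was 11.84, against 9.866 to 10.41. The protein genes held 5.435% of its gene counts, against 2.93% to 3.53%.

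A3 was far below the other AZ6983 mice in mt-Tp, with a log2 CPM of 1.323 against 2.3 to 2.511, and in the rRNA share of mitochondrial counts, with 65.92% against 75.57% to 78.65%. The row of mt-Tp held 62 counts in A3. Among the controls C6 was far below the rest in mt-Tq, with a log2 CPM of 1.294 against 2.192 to 2.497. In mt-Rnr2 it was also below them, at 16.12 against 16.56 to 16.82. The gap in mt-Rnr2 was 0.626 of the range, the smallest of the 8 flags, and the other gaps were 0.721 to 0.823. C6 was also the control with the lowest Ucp1 (1834 CPM) and A5 the AZ6983 mouse with the highest (3728 CPM), and the part of fat tissue in these distances was not tested.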

How the results depend on the processing

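No mitochondrial row was called under any of the alternatives run, and over them the smallest adjusted p of a tested row was 0.109, for mt-Nd1 without A5. The number of genes called at 10% FDR was 0 in the reported fit, 2 with library sizes alone, 92 with DESeq2, 4 with limma-voom and quality weights, and 0 to 27 when each mouse was left out in turn (27 without A5, 1 without C6, 1 without A1, otherwise 0). The median log2 fold change of the protein genes was -0.04 in the reported fit, -0.34 with voom weights, and -0.44 (without A5) to 0.0423 (without A3) over the omissions. The share of counts differed by -1.88 (without A5) to 0.93 (without A3) percentage points over the omissions, and these differences were not tested.

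The sign turned in 33 of 412 values of a single gene under an alternative, none with a call. mt-Nd2 was at -0.03 with library sizes alone, -0.12 with limma-voom, -0.34 with weights and -0.0277 with the share of unassigned reads as a covariate. mt-Rnr2 was at -0.0086 with voom, -0.16 with weights and -0.0267 with the covariate. With weights mt-Nd4 was at -0.13, mt-Nd5 at -0.0461 and mt-Rnr1 at -0.25, and with the covariate mt-Rnr1 was at -0.13 and mt-Cytb at 0.0011. Over the omissions mt-Nd2 ran from -0.44 to 0.16, mt-Nd4 from -0.23 to 0.28, mt-Nd5 from -0.15 to 0.46, mt-Rnr1 from -0.22 to 0.38 and mt-Rnr2 from -0.21 to 0.21, each lowest without A5. mt-Cytb ran from -0.39 to 0.0526, mt-Nd6 from -0.57 to 0.12, mt-Ti from -0.28 to 0.0937, mt-Tq from -0.20 to 0.0466, mt-Tt from -0.29 to 0.11 and mt-Ty from -0.041 to 0.30. The causes of these moves were not tested. Under limma-voom with weights mt-Nd1, mt-Co3, mt-Tm and mt-Tw were at an unadjusted p under 0.05, and mt-Tw also with library sizes alone and without C6. The share of all genes at this p is not given for these settings, so no excess is read from these rows. The counts of mt-Co3 are not read as amounts of its transcript, and mt-Tm has few counts.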
